A study of Homo sapiens with 5 samples.

Results

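The genes described here are 9 transcription regulators of the embryonic kidney, GATA3, SIX2, SALL1, EYA1, LHX1, WT1, PAX2, OSR1 and PAX8, taken by symbol from the 24497 gene rows of a table of counts. All 9 have a row. The table profiles HEK293, a long-established cell line that was made from human embryonic kidney by transformation with adenovirus DNA, grown in DMEM with serum and given no treatment. Each of the 5 libraries holds material of 100 cells, taken from a lysate of 1000 cells, primed with oligo-dT and selected for the 5' ends of transcripts. The labels put 2 libraries in batch A and 3 in batch B and name no difference between the batches other than the batch itself. Libraries are called here by the number that ends their column, namely 2 and 3 for batch A, with 1, 2 and 3 for batch B. Nothing in the labels says that they came from separate cultures, so each test reflects the spread among the 5 libraries alone, which can be technical.

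The kidney forms from intermediate mesoderm, which gives rise to the nephric duct with its ureteric bud and to the metanephric mesenchyme that surrounds the bud. The mesenchyme sends GDNF to the RET receptor on the bud, the bud branches, and signals from the bud turn part of the mesenchyme into nephrons while another part renews itself. OSR1 is among the earliest markers of the intermediate mesoderm. PAX2 and PAX8 are paired-box factors that act with LHX1 and GATA3 in the nephric duct. EYA1, SIX2, SALL1, WT1 and PAX2 act in the mesenchyme, where SIX2 keeps nephron progenitors undifferentiated.

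Depth sets what can be seen of such genes. The libraries held 373687 to 803168 gene counts, and 3 counts, taken as the detection limit, correspond to 8.03 CPM (counts per 1000000 gene counts) in library 1 of batch B, which was sequenced least, and to 3.74 CPM in library 3 of batch A, which was sequenced most. Over all 5 libraries together, 3 of 3124391 gene counts correspond to 0.96 CPM. Whether identifiers of molecules were collapsed before counting is not given in the sources used here, so limits and intervals from counts cover counting error only. The labelled cell type was checked against fixed marker lists. VIM and CDH2, mesenchymal genes that HEK293 cells are known to express, had pooled levels of 471 and 86.4 CPM, and FN1, the third of that list, had 11.2 CPM. Of the epithelial list KRT18 and KRT8 had 62.7 and 46.7 CPM, EPCAM had 3 counts over all libraries, and CDH1 and KRT19 had none. The neurofilament genes NEFL and NEFM, of the neuronal list, had 60.2 and 47 CPM. Of the other 3 genes of that list with a row, ENO2 had 25.6 CPM, INA had 7.36 CPM and ELAVL4 had 1 count. Spike-in counts were not alike in the batches, although the labels give the same amount of ERCC RNA per cell for every library. ERCC rows held 1785 and 2127 counts in the 2 libraries of batch A, but 13, 1 and 19 in those of batch B. The part of this difference in the results below was not tested.

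The 9 genes fell into 3 tiers. GATA3, SIX2, SALL1, EYA1, LHX1 and WT1 had at least 3 counts in each of the 5 libraries, PAX2 had 1 to 4 counts in each, and OSR1 and PAX8 were at or below the limit. Thus 7 of the 9 had a count in every library, against 11819 of all 24497 gene rows (48.2%), and 1 had no count at all, against 4410 gene rows (18%). Together the 9 genes took 415 counts, which is 0.0133% of gene counts, and GATA3, SIX2 and SALL1 took 60.2% of these. In bulk samples, fewer cells with a transcript and fewer transcripts per cell cannot be told apart. Because a 5' end is in principle counted once per cDNA whatever the transcript's length, levels in CPM are compared between genes without division by length, and values per kilobase are given where the order changes.

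The bases upstream of the annotated start sites of SIX2 and PAX8 are given as description. Where the counted 5' ends lay is not known here. Both genes lie on chromosome 2, and each has a single start site in the RefSeq promoter table (GRCh38.p14), which matched 5 of the 9 genes. They are shown because SIX2 is among the most abundant of the 9 genes and PAX8 has no count. Each line holds the 250 bases upstream of the start site, read 5′ to 3′ on the minus strand of the chromosome, at chr2:45009453-45009702 for SIX2 and chr2:113278922-113279171 for PAX8. The build is not that of the counts, so the windows serve only to show the sequence. Capitals mark the letters CCAAT or their reverse complement ATTGG.
SIX2: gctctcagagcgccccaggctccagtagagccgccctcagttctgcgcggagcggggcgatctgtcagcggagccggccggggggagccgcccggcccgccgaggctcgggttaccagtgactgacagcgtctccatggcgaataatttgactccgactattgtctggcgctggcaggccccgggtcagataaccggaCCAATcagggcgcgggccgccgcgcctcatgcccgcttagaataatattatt
PAX8: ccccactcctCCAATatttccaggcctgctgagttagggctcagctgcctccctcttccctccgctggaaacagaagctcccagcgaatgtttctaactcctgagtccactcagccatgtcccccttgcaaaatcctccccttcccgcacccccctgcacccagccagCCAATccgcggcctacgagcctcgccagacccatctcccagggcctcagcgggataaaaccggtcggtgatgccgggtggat
The letters CCAAT were found once for SIX2, beginning 52 bases upstream of the start site, and at 2 places for PAX8, 240 and 82 bases upstream, and 32% of 35116 windows of this length in the table held them on either strand. Neither window held TATAA or its reverse complement TTATA, which 18.9% of windows held. GGGCGG or its reverse complement CCGCCC occurred at 2 places for SIX2 and nowhere for PAX8, against 42.6% of windows with a match. The SIX2 window had 26 CpG dinucleotides (observed over expected 0.967) and the PAX8 window 11 (0.518), beside a median ratio of 0.558 over all windows. These are descriptions of letters, and a match or its absence says nothing here of a factor's binding.

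GATA3, a zinc finger factor required in the nephric duct, was the highest of the 9. Batch A libraries 2 and 3 held 25 and 24 GATA3 counts, those of batch B (1, 2 and 3) held 11, 18 and 28. Scaled to depth, the batch A values were 36.4 and 29.9 CPM, with 29.4, 31.3 and 40.9 CPM for batch B. The highest and the lowest value both lay in batch B, so that the batches overlapped. The pooled level was 33.9 CPM (95% exact Poisson interval 27.8 to 41), and 23.4% of gene rows were higher. The partner row GATA3-AS1, an antisense transcript, had 2 counts in all. Whether counting used strand is not given in the sources used here.

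SIX2, the homeobox factor of self-renewing nephron progenitors, was counted 25 and 18 times in the batch A libraries, and 10, 14 and 20 times in those of batch B. On the CPM scale batch A gave 36.4 and 22.4, batch B 26.8, 24.3 and 29.2. Both extremes lay in batch A, and the batch B libraries fell between them. The pooled level of 27.8 CPM (22.3 to 34.3) was below that of GATA3. GATA3 had the higher count in 4 of 5 libraries and both had 25 in batch A library 2. Their ranges over libraries overlapped. Per kilobase of the longest GENCODE transcript the order turned, to 12.6 CPM per kilobase for SIX2 and 10.9 for GATA3.

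SALL1, EYA1 and LHX1 formed a middle group that could not be put in order beyond the spread over libraries. SALL1 is a zinc finger repressor needed for the bud to enter the mesenchyme. It had 9 counts in each batch A library and 7, 17 and 15 in batch B, or 13.1 and 11.2 CPM against 18.7, 29.5 and 21.9 CPM. It was the only one of the 9 genes for which every batch B library lay above both batch A libraries. Of all genes tested for a batch difference, 13.5% were higher in batch B in the same way. EYA1, a phosphatase that serves as coactivator of SIX2, was counted 12 and 13 times in the batch A libraries, and 9, 11 and 11 times in those of batch B, or 17.5 and 16.2 CPM against 24.1, 19.1 and 16.1 CPM. The lowest and the highest EYA1 values were both in batch B. LHX1, a LIM homeobox factor of the nephric duct and early nephron, was counted 10 and 13 times in the batch A libraries, and 6, 10 and 15 times in those of batch B, or 14.6 and 16.2 CPM against 16.1, 17.4 and 21.9 CPM. Its batches overlapped by a narrow margin, batch B library 1 lying just below batch A library 3. Pooled levels were 18.2 CPM for SALL1 (13.8 to 23.6), 17.9 for EYA1 (13.5 to 23.3) and 17.3 for LHX1 (13 to 22.6). Per kilobase the order was LHX1 (5.05), WT1 (4.51), EYA1 (4.14) and SALL1 (3.47), so 6 of the pairs of members changed places on that scale.

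WT1, a zinc finger factor of the metanephric mesenchyme and later of podocytes, varied most over libraries among the 6 genes of the upper tier. It was counted 16 and 8 times in the batch A libraries, and 10, 5 and 5 times in those of batch B, which is 23.3 and 9.96 CPM against 26.8, 8.69 and 7.3 CPM. One library of each batch was high, batch A library 2 and batch B library 1, and the other 3 were low, so the split did not follow the batches. The chi-square statistic of its counts against library depth was 3.2 per degree of freedom, where 1 is the value for sampling alone. Among 3868 gene rows with 40 to 120 pooled counts the median was 1.11, and 5.51% had a value at least as high as that of WT1. For SALL1 the statistic was 1.93 (22.2% at least as high), and for GATA3, SIX2, LHX1 and EYA1 it was 0.278 to 0.743. The pooled level of WT1 was 14.1 CPM (10.2 to 18.9), and its antisense partner WT1-AS had 2 counts in all.

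**Figure D1:**
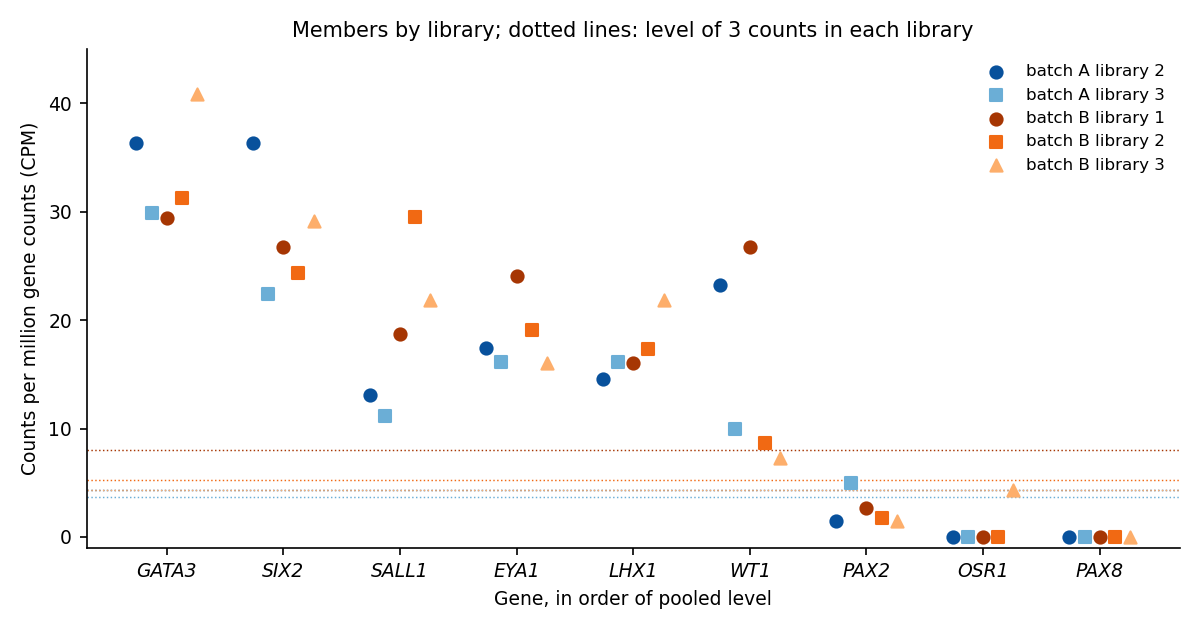
Level of each of the 9 genes in CPM (vertical axis) in every library, batch A in blue and batch B in orange, with the level of 3 counts in each library as a dotted line. The values of WT1 form a high pair at 23.3 and 26.8 CPM and 3 low values at 7.3 to 9.96 CPM. All values of SALL1 in batch B lie above those in batch A, as did those of 13.5% of all tested genes.

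PAX2, the paired-box factor of both bud and mesenchyme, stood well below that tier. It was counted 1 and 4 times in the batch A libraries, and 1, 1 and 1 times in those of batch B, or 1.46 and 4.98 CPM against 2.68, 1.74 and 1.46 CPM. Only batch A library 3, the deepest, reached the limit of 3 counts. The pooled level was 2.56 CPM (1.11 to 5.05), and 51.7% of gene rows were higher. WT1, the next gene up, had 5.5 times the pooled count (95% exact binomial interval 2.56 to 13.5) and the higher count in 5 of 5 libraries. This is the only gap between neighbours in the order at which the ranges over libraries did not overlap.

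OSR1, the early factor of intermediate mesoderm, had 3 counts in batch B library 3 and 0 in the other 4 libraries. Its pooled level of 0.96 CPM (0.198 to 2.81) is that of the limit, and 4 libraries allow up to 3.74 to 8.03 CPM each. PAX8, a paired-box factor related to PAX2, had 0 counts in all 5 libraries, which allows a pooled level of up to 0.96 CPM at 3 counts, and of up to 1.18 CPM by the exact Poisson interval. GATA3 was therefore at least 35.3-fold higher than PAX8, SIX2 at least 29-fold and WT1 at least 14.7-fold, taking 3 counts over all libraries as the limit and leaving out the counting error of the higher gene. At its pooled level PAX2 would give 0.957 counts in the shallowest library, so a single library of that depth does not separate the level of PAX2 from that of PAX8.

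The families to which these genes belong give a scale for their levels. Of 31 paralogs listed, 25 had a row, all of these with at least 1 count, and their median pooled level was 8 CPM. GATA2 and GATA6, at 68.5 and 67.2 CPM, were the highest. Counts, chosen for mention after their values were seen, showed a more abundant paralog for EYA1, SALL1, GATA3, PAX2, PAX8 and OSR1. EYA3 had 3.43 times the count of EYA1 (2.53 to 4.7), and SALL2 had 2.11 times that of SALL1 (1.52 to 2.94), each in 5 of 5 libraries. GATA2 had 2.02 times the count of GATA3 (1.59 to 2.57), higher in 4 of 5 libraries.

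The largest gaps within families were those of PAX and OSR. PAX6, a paired-box factor best known from eye and brain, was counted 23 and 40 times in the batch A libraries, and 14, 27 and 32 times in those of batch B, and 43.5 CPM pooled. That is 17 times the count of PAX2 (95% exact binomial interval 8.39 to 40.2) and at least 45.3-fold above PAX8 at the limit of 3 counts, or at least 36.4-fold by the lower end of the exact binomial interval, which includes the counting error of PAX6. OSR2 had 26 counts against 3 for OSR1, a ratio of 8.67 (2.66 to 44.7). LHX1 led its family, with 2.16 times the count of LHX6 (1.32 to 3.62), higher in 4 of 5 libraries and equal in batch B library 1. SIX2 could not be told apart from SIX5 (ratio 1.1, interval 0.803 to 1.51) or SIX4 (1.21, 0.874 to 1.67). GATA3 was higher than GATA4 in 5 of 5 libraries, although the interval of their ratio included 1 (1.29, 0.96 to 1.75).

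**Figure D2:**
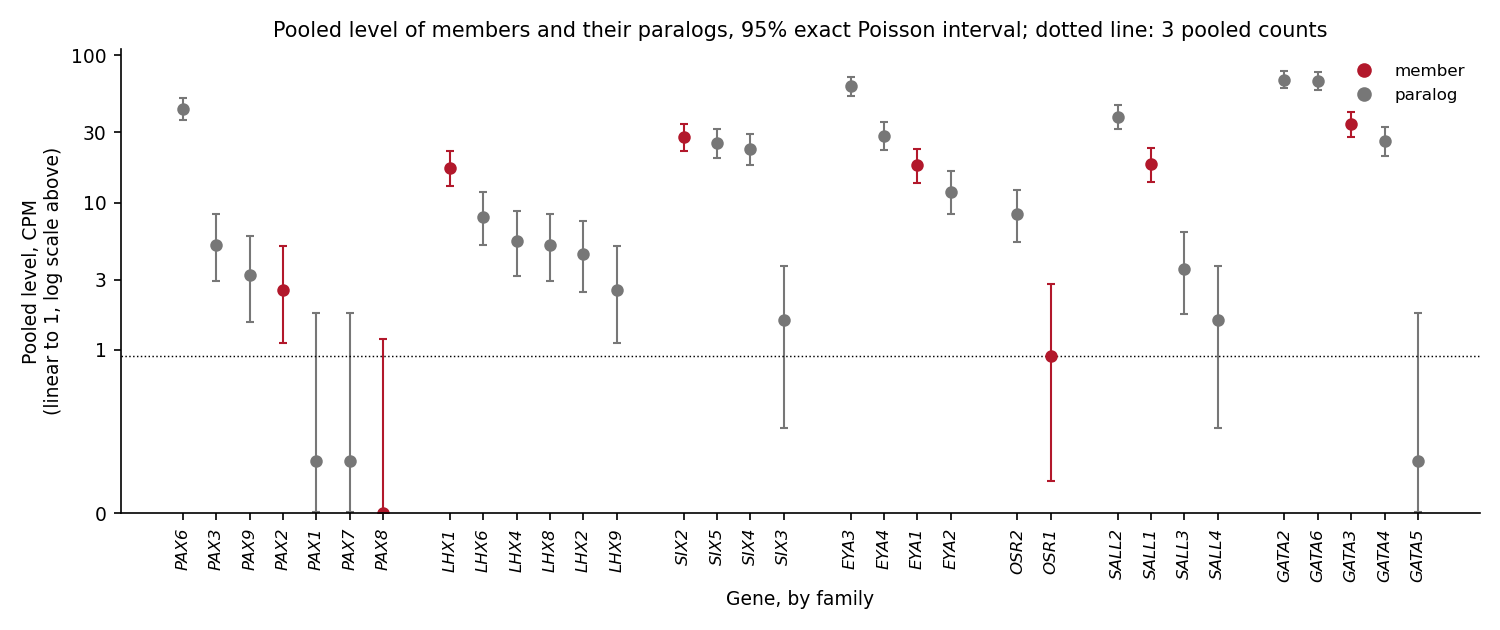
Pooled level in CPM (vertical axis, linear to 1 and logarithmic above) of 8 of the 9 genes in red and of most of their listed paralogs in grey, grouped by family, with 95% exact Poisson intervals and a dotted line at 3 pooled counts (0.96 CPM). LHX1 leads its family, whereas PAX2 and PAX8 lie far below PAX6 at 43.5 CPM. WT1 has no listed paralog and is not drawn, and since not every listed paralog is drawn, the first gene of a family in the plot need not be its highest.

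The comparison of batch B with batch A asks whether these regulators differed when the line was profiled in another batch. The filter on low counts kept 6 of the 9 genes, and PAX2, OSR1 and PAX8 were not tested. EdgeR's quasi-likelihood test, adjusted by Benjamini-Hochberg over 9215 genes, called 0 of the 6, against 4.2% of all tested genes (2.15% higher and 2.05% lower in batch B), and 1 of the 6, SALL1, had an unadjusted p under 0.05, against 16.4%. Limma-voom called 0 of them, and DESeq2 gave none an adjusted p. SALL1 was the only one of the 6 whose batches did not overlap (16.7%), while 31.3% of all tested genes were separated in either direction and 13.5% were higher in batch B. With 6 genes, 1 gene is 16.7%, so these shares are coarse and are not read further.

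SALL1 had the largest difference, with 12.2 ± 1.34 CPM (SD, n = 2) for batch A against 23.4 ± 5.56 CPM (SD, n = 3) for batch B. The fitted fold was 1.98 (95% interval 1.07 to 3.68), with a log2 fold change of 0.99 (SE 0.45, edgeR adjusted p = 0.236). The unadjusted edgeR value was 0.0297, so SALL1 did not pass the threshold after adjustment over all genes. By the DESeq2 Wald test its unadjusted p was 0.0948. Of all tested genes, 2.59% had a larger absolute log2 fold change. For GATA3 the fold was 1.07 (0.7 to 1.64), at 33.1 ± 4.61 CPM for batch A against 33.9 ± 6.14 CPM for batch B. For SIX2 it was 0.942 (0.584 to 1.52), at 29.4 ± 9.89 and 26.8 ± 2.43 CPM. EYA1 had a fold of 1.15 (0.63 to 2.11) and LHX1 one of 1.24 (0.669 to 2.3). WT1 had a fold of 0.784 (0.395 to 1.56), at 16.6 ± 9.43 and 14.2 ± 10.9 CPM. The edgeR adjusted p of these 5 genes was 0.801 to 0.947. EdgeR took the spread from genes of like abundance, so the interval of WT1 does not reflect its own wider spread over libraries. The intervals leave room for changes of about the size of the fitted fold of SALL1 in EYA1, LHX1 and, downward, WT1, so these counts do not show equal levels.

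For WT1, SIX2 and GATA3 the sign of the difference rested on single libraries. The log2 fold change of WT1 was -0.35 with all libraries, 0.39 once library 2 of batch A was left out and 0.034 once library 3 of batch B was. Without batch B library 1 the filter on low counts removed WT1. That of SIX2 turned from -0.086 to 0.31 without batch A library 2. That of GATA3 turned from 0.098 to -0.064 when library 3 of batch A was left out and to -0.060 when library 3 of batch B was. SALL1 stayed between 0.79 and 1.12 over the 10 alternative fits that kept it, with adjusted p of 0.207 to 0.602 in the 9 that gave one.

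**Figure D3:**
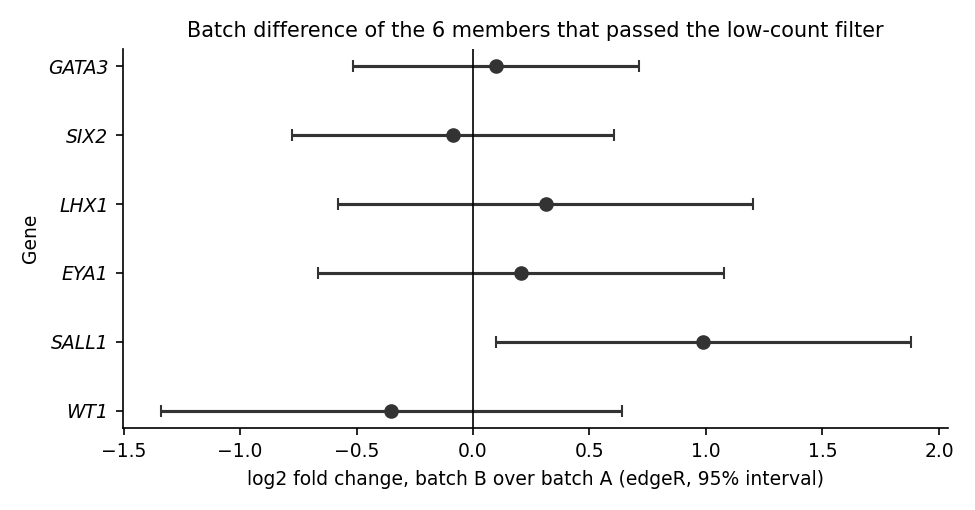
Log2 fold change of batch B over batch A (horizontal axis) for the 6 genes that passed the filter on low counts, with 95% intervals from edgeR. The interval of SALL1 runs from 0.10 to 1.88 before adjustment for the number of genes tested, and the other 5 include 0.

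The summed level of the 9 genes was 143 and 111 CPM in batch A libraries 2 and 3, and 145, 132 and 143 CPM in batch B libraries 1, 2 and 3. Batch A library 3 was the lowest and the other 4 lay close together, so the batches overlapped. The likeness of single genes to the 3 highest members was measured as Euclidean distance of log2(CPM + 1) over the 5 libraries, among 9214 genes. Nearest to GATA3 were ZFP64 (0.202) and STIM1 (0.223), nearest to SIX2 were VPS4B (0.153) and AP5M1 (0.228), and nearest to SALL1 were DENND1A (0.285) and RP1-292B18.1 (0.398). The median distance of all genes was 2.23 to GATA3, 2.3 to SIX2 and 3.2 to SALL1. The measure joins genes of like level, and with 5 libraries it says little of their pattern.

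Other genes of kidney development were taken from fixed lists. The nephron progenitor list had 19 of 21 genes with a row and 18 with a count, led by CITED1, a transcriptional coregulator of the cap mesenchyme, at 153 CPM, and HOXA10 at 116 CPM. Of its 10 tested genes 1 rose and 0 fell, beside 2.15% and 2.05% of all tested genes. In lists this short, here and below, 1 call is not read against those shares. The median log2 fold change of the list was 0.35, beside 0.004 over all tested genes. A difference of the list as a whole was not tested. GPC3, a cell surface heparan sulfate proteoglycan, was the gene that rose. It was counted 27 and 25 times in the batch A libraries, and 27, 36 and 43 times in those of batch B, and its fold was 1.88 (edgeR adjusted p = 0.0158). The call was lost when library 3 of batch A was left out (edgeR adjusted p = 0.273), when library 1 of batch B was (0.051) and after thinning to the smallest library (0.0616). GDNF, the ligand that the mesenchyme sends to the bud, had 0 counts in all libraries.

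The ureteric bud and collecting duct list was less well covered. Of 19 genes 16 had a row and 14 a count, with 7 counted in every library and a median pooled level of 4.48 CPM, against 22.7 CPM for the nephron progenitor list. SLIT2, a secreted guidance protein, led at 129 CPM, followed by SPRY1, an inhibitor of receptor tyrosine kinase signalling, at 50.6 CPM. RET, the GDNF receptor, was counted 1 and 3 times in the batch A libraries, and 0, 0 and 2 times in those of batch B. Its coreceptor GFRA1, named after its values were seen, had 14 counts in all, and ETV4 and GRHL2 had none. ETV5 and WNT11, named in the same way, had 14 and 18 counts in all. ETV5 was counted 0 and 0 times in the batch A libraries, and 3, 7 and 4 times in those of batch B. For WNT11 the counts were 0 and 2 against 4, 5 and 7. Every batch B library was thus higher in CPM than both of batch A, as for 13.5% of all tested genes. Neither gene passed the filter on low counts, so their batch difference was not tested. None of the 4 tested genes of the list was called by edgeR, and 0 had an unadjusted p under 0.05. So both sides of the GDNF and RET pair were at or near the limit.

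Of the nephron differentiation list 13 of 18 genes had a row and 11 a count. HES1 and HEY1, transcriptional repressors downstream of Notch, led at 356 and 180 CPM, while WNT4, the signal for nephron formation, had no count. Of 4 tested genes 1 rose and 0 fell, beside 2.15% and 2.05% of all tested genes, and the list's median was 0.23 on the log2 scale. HES1 was counted 187 and 241 times in the batch A libraries, and 166, 258 and 259 times in those of batch B, or 286 ± 19.7 CPM (SD, n = 2) against 424 ± 39.5 CPM (SD, n = 3). The fold was 1.49 (edgeR adjusted p = 3.39e-05). Over the 11 alternative fits the log2 fold change of HES1 was 0.52 to 0.69, and the DESeq2 Wald test also called it (adjusted p = 0.0011).

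Genes whose expression has been linked to PAX2, PAX8 or WT1 were listed as well. Of 13 listed, 11 had a row and 8 a count, and SIX2 is itself one of them. ID2, an inhibitor of helix-loop-helix factors, had the highest level at 195 CPM, followed by SPRY1. GDNF, WNT4 and SFRP2 had no count, and NPHS1, the nephrin of podocytes, had 1. By edgeR 0 of the 5 tested genes were called and 0 had an unadjusted p under 0.05.

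Most partners and cofactors were more abundant than the regulators themselves. Their median pooled level was 55.2 CPM over 18 genes with a row, and 11 of these exceeded GATA3. RBBP7 and RBBP4, histone-binding subunits of the NuRD complex to which SALL1 is known to bind, led at 425 and 316 CPM. DACH1, the cofactor that works with EYA1, named after its values were seen, had 61.5 CPM. Of 15 tested genes 1 rose and 0 fell, beside 2.15% and 2.05% of all tested genes, and the list's median was 0.13 on the log2 scale. MTA2, a NuRD subunit, was the gene that rose, with a fold of 1.77 (edgeR adjusted p = 0.0373). Its adjusted p was under the threshold in 4 of the 10 alternative fits that gave one. It missed the threshold without library 3 of batch A (0.429), library 2 of batch A (0.0535), library 1 of batch B (0.162) or library 2 of batch B (0.0565), without a filter on low counts (0.109) and after thinning (0.0782).

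Most markers of podocytes, mature tubule, endothelium and leukocytes were sparse, and those of renal stroma were better covered. Of the podocyte list 5 of 7 genes with a row had a count, with PODXL at 28.5 CPM and CLIC5 and FOXC2 at 0. Of the mature tubule list 4 of 5 had a count, led by the endocytic receptor LRP2 at 23 CPM and AQP3 at 4.8 CPM, with UMOD at 0. Of the renal stroma list 8 of 9 genes had a count, 5 of them in every library, with a median pooled level of 8 CPM. In that list ALDH1A2, an enzyme of retinoic acid synthesis, had 87.1 CPM and MEIS1 and TBX18 17.3 CPM each. FOXD1, the defining factor of that lineage, had 1 count and PDGFRB none. The endothelial gene VWF and the T cell gene CD3E had no count. CD14, a monocyte gene, had 2 counts in all. Of the leukocyte list 1 other gene had a count in every library. The list's summed level was 2.49 to 4.37 CPM in batch A and 2.68 to 12.2 CPM in batch B. Of 5 endothelial genes listed only VWF had a row, and 4 of 5 leukocyte genes did, so the others could not be assessed. None of those with a row passed the filter for testing. No gene of the other lists here or of the epithelial, neuronal and mesenchymal lists was called by edgeR, and 1 neuronal and 1 mesenchymal gene had an unadjusted p under 0.05.

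**Figure D4:**
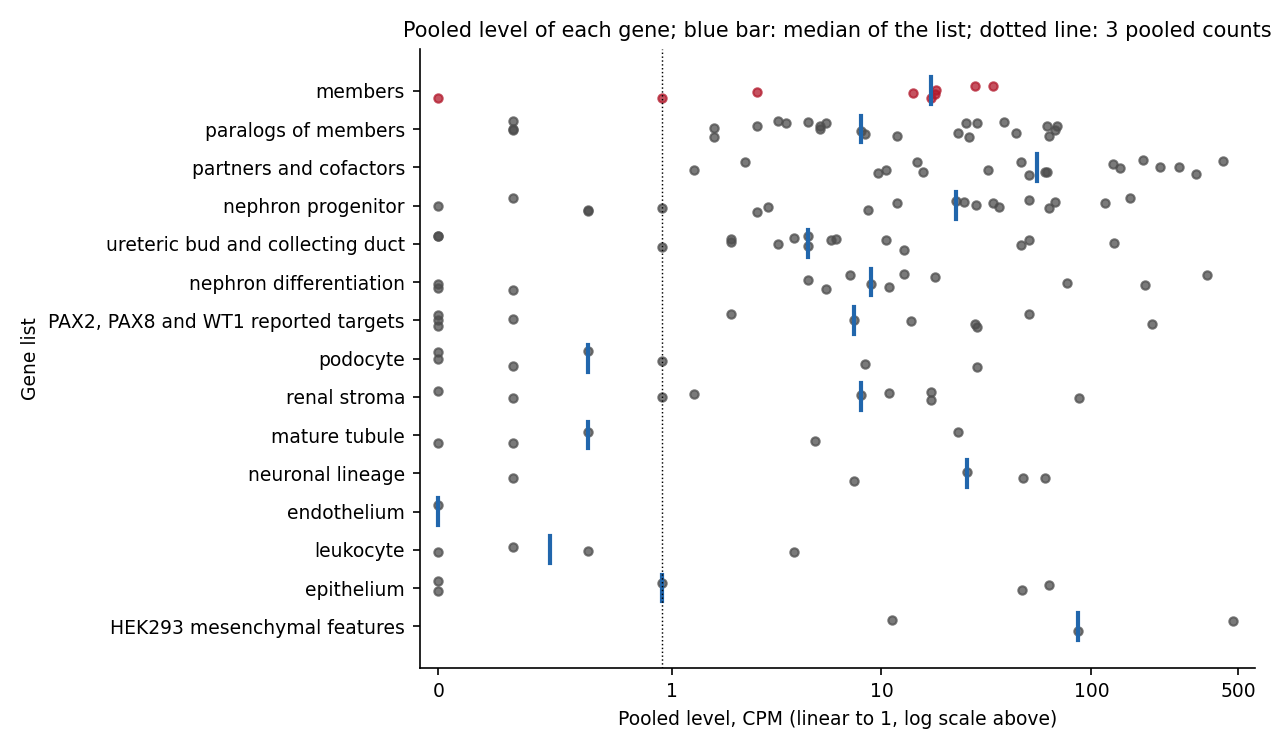
Pooled level in CPM (horizontal axis, linear to 1 and logarithmic above) of each gene with a row, by list, with the 9 regulators in red and the median of each list as a blue bar. The median of the regulators, 17.3 CPM, lies between those of the nephron progenitor list (22.7) and the nephron differentiation list (8.96), and genes at 0 stand on the left edge.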

How the data were processed

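The authors deposited a single table of whole-number counts, with a column for each library and 52 ERCC spike-in rows beside the gene rows. Tools named per the submitters' processing notes are cutadapt (1.2.1) and STAR (2.4.0a), and the builds are hg19 and GRCh37. The gene annotation, the use of strand and any collapsing of identifiers are not stated by any label, processing note or header used here. A column was placed in a batch when its first part matched that of the titles, and 0 columns were left out.

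CPM values use gene counts without spike-ins. The batches were compared with edgeR 4.0.16 in R 4.3.3 (TMM, filterByExpr, library sizes recomputed after the filter, quasi-likelihood F test, Benjamini-Hochberg adjusted p under 0.05), with DESeq2 1.42.0 and limma 3.58.1 as alternatives. EdgeR estimated infinite prior degrees of freedom, which pools the spread across genes of like abundance. Standard errors were obtained from the log2 fold change and its F value. The test was tested on simulated data. An exact permutation test of 2 against 3 libraries cannot go below p = 0.1, so none is given.

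The 9 genes and the lists were chosen with earlier results of these data known. Named genes are the 9 genes, called genes and the 2 highest genes of each list, and the 2 genes nearest to each of the 3 highest members; a few of these are not reported here. Transcript lengths came from GENCODE release 29, matched by symbol. The limit is 3 counts.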

Additional observations from a re-analysis of the deposited data

How the results depend on the processing

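Of the 9 genes, the alternatives called 0 of those they tested. These were 6 with DESeq2 size factors, library totals and limma-voom, 8 without a filter on low counts, 6 when a library was left out (5 without library 1 of batch B) and only GATA3 after thinning in a single draw. The DESeq2 Wald test gave 0 of the 9 an adjusted p, and PAX8 was tested in no fit. The number of all genes called was 387, and 111 with the DESeq2 Wald test, 187 after thinning and 138 to 333 when a library was left out. With library 2 of batch A left out, SIX2 stood at 0.31 and WT1 at 0.39 on the log2 scale. With library 3 of batch A left out GATA3 stood at -0.064, and with library 3 of batch B left out GATA3 stood at -0.060 and WT1 at 0.034. The cause was not tested. When a library was left out and the gene kept, values ran from -0.88 to 0.39 for WT1, from -0.43 to 0.31 for SIX2 and from -0.064 to 0.26 for GATA3. Without the filter PAX2 was at -0.79 (edgeR adjusted p = 0.804). With CPM per kilobase 6 pairs of the 9 genes stood in another order, and with mean CPM over libraries 0 did. Genes counted in every library were 7 of the 9, and 6.05 after thinning as a mean of 20 draws. The summed level was 13.1 CPM higher in batch B, and the difference was -2.81 to 29.1 when a library was left out. Fits that leave 1 library in batch A take its spread from the other batch. No paired analysis was possible because the batch A columns end in 2 and 3 while the labels number that batch 1 and 2, so the numbers ending the columns cannot be taken as replicate numbers shared between the batches. Low counts limit the precision throughout.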
